A study of Mus musculus with 6 samples.

Results

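Granzymes and the genes that work with them in cytotoxic granules were followed through expression arrays of pre-granulocyte-macrophage progenitors (PreGMs), early myeloid progenitors of mouse bone marrow. The set has 8 genes, Gzma, Gzmb, Gzmc, Gzmk, Gzmm, Prf1, Ctsw and Nkg7, and each was read by 1 probe set annotated to that gene alone, out of 19937 genes with a row of their own. They were chosen by gene symbol with their log2 values under the 2 genotype labels already known, so those values are a description here and carry no test. Whether a gene passed the fit over all genes is given for them in the same sense.

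Cytotoxic granules are secretory lysosomes that natural killer (NK) cells and cytotoxic T cells release onto a target cell. Perforin opens a path into the target, and granzymes, a family of serine proteases with different cleavage preferences, enter and cut proteins there. Granzyme genes lie in clusters, some of them beside the protease genes of neutrophils, mast cells and basophils, so cells of different lineages express different members of 1 gene neighbourhood.

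The 6 arrays came from female C57BL/6 mice, 3 labelled Cebpaflox/flox;Mx1Cre and 3 labelled Cebpa flox/flox. Every mouse carried the floxed Cebpa alleles and had received pIC (polyinosinic-polycytidylic acid) 18 days before the marrow was taken, so the control arrays share both. Mx1Cre is a Cre recombinase under the interferon-inducible Mx1 promoter, which is active in many cell types and not in PreGMs alone. Cells were sorted as lineage-negative, Sca1-negative and Kit-positive, without CD150, CD41, FcgRII or endoglin. Values are log2 expression per probe set, and a difference is the mean of the arrays labelled Mx1Cre minus that of the arrays labelled flox/flox, so 1 log2 unit is a doubling.

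Cebpa, the targeted gene, read 8.71, 9.31 and 8.98 in the arrays labelled Mx1Cre and 6.93, 6.71 and 6.85 in those labelled flox/flox, which is higher where a deletion is labelled. The difference was 2.17 ± 0.14 log2 units (SE, limma adjusted p = 2.65e-05). Where its probes lie relative to the deleted part was not used here, so the value does not show whether the alleles were deleted. Why it was higher was not tested. Every direction is given by the deposited labels and would turn if they were exchanged. Over all genes, arrays with the same label correlated at 0.992 to 0.995 and arrays with different labels at 0.984 to 0.990, and no pair of arrays was identical. Over all genes, 4.91% passed the limma fit at an adjusted p under 0.05, 2.28% lower and 2.63% higher in the arrays labelled Mx1Cre. The lower quartile of gene levels was 5.63 and the median 6.64, which serve as a guide to how dim a gene is.

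Gzmb, Gzmc and Ctsw were lower in the arrays labelled Mx1Cre with differences of -4.45 to -1.54 log2 units, while Gzmk, Gzmm and Prf1 differed by -0.10 to -0.04. Gzma and Nkg7 lay between, at -0.43 and -0.42. Of the 8 genes, 3 passed the fit over all genes, all of them lower, where 2.28% of all genes did. In 6 of the 8 the groups were free of overlap, all lower, against 11% of all genes lower without overlap and 21.6% in either direction. All 8 differences were below 0, as were those of 10643 of the 19937 genes, with a median of -0.43 against -0.01 over all genes. The 95% intervals of Gzmk, Gzmm and Prf1 included 0. Nothing is read from these counts, since the comparison was known when the genes were chosen.

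**Figure D1:**
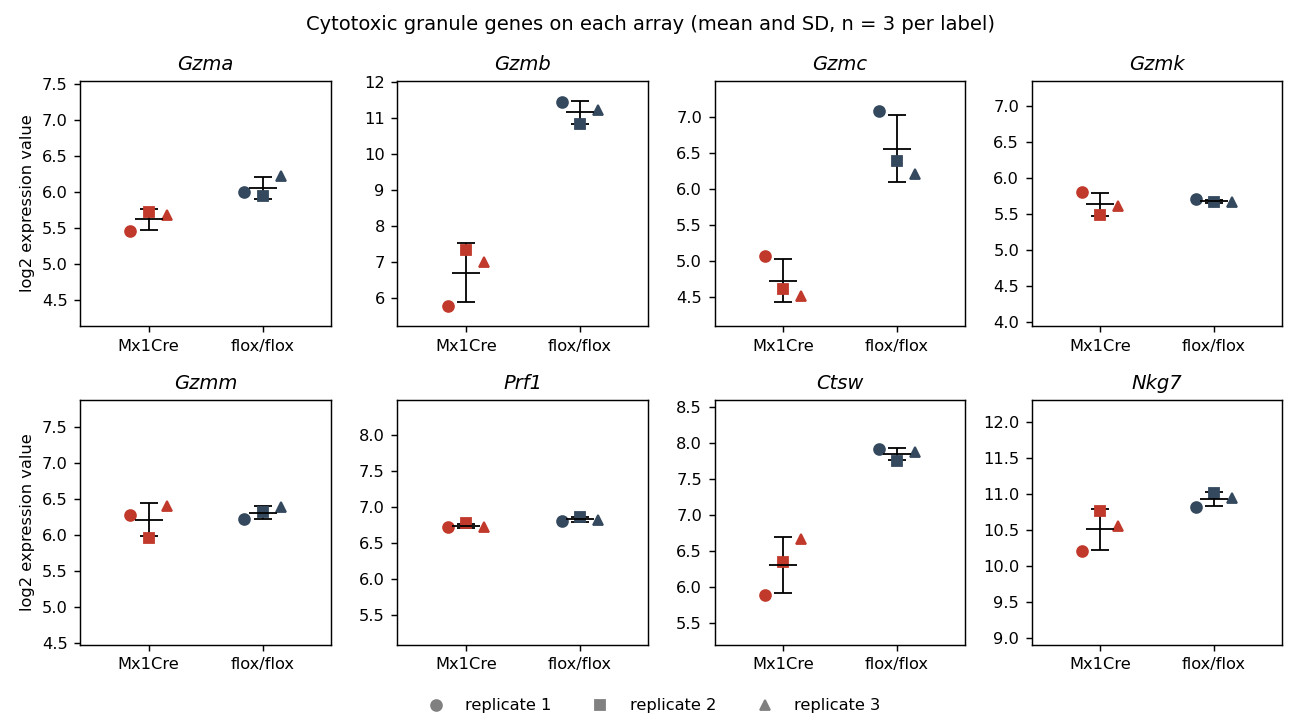
Log2 expression value (vertical axis) of each cytotoxic granule gene on the 3 arrays labelled Mx1Cre (red, left) and the 3 labelled flox/flox (dark blue, right). Symbols mark the replicate number and black bars the mean and SD. The vertical axis spans the same width in every panel except that of Gzmb, where it is wider. Gzmb, Gzmc and Ctsw are separated by wide gaps, and Gzmk and Gzmm overlap.

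Gzmb encodes granzyme B, a protease that cuts after aspartate and activates caspases in target cells. It read 5.80, 7.35 and 6.99 in the arrays labelled Mx1Cre and 11.5, 10.8 and 11.2 in those labelled flox/flox. Every array labelled Mx1Cre lay at least 3.48 log2 units below every array labelled flox/flox, and replicate 1 was the lowest of all 6. The difference was -4.45 ± 0.33 log2 units (SE), 21.9-fold lower, the lowest of all 19937 genes. Its mean stood at percentile 51.7 of gene levels in the arrays labelled Mx1Cre and at percentile 97.7 in those labelled flox/flox. The spread between replicates was wider in the arrays labelled Mx1Cre, with an SD of 0.81 against 0.32 in those labelled flox/flox (n = 3 each). In sorted cells measured in bulk, fewer cells that express a gene and less RNA per cell cannot be told apart.

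Gzmc encodes granzyme C, a related protease of activated mouse cytotoxic lymphocytes. It read 5.06, 4.60 and 4.50 in the arrays labelled Mx1Cre and 7.08, 6.38 and 6.20 in those labelled flox/flox. The groups did not overlap, and replicate 1 was the highest array within each label, unlike the arrays labelled Mx1Cre for Gzmb. The difference was -1.83 ± 0.22 log2 units (SE), 3.57-fold lower, and the mean level of 4.72 in the arrays labelled Mx1Cre lay below the lower quartile of genes. RMA compresses differences at such levels.

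Ctsw encodes cathepsin W, a papain-like cysteine protease found mainly in cytotoxic T cells and NK cells. It read 5.89, 6.36 and 6.67 in the arrays labelled Mx1Cre and 7.92, 7.76 and 7.87 in those labelled flox/flox. The arrays labelled flox/flox lay close together (SD 0.083, n = 3) and the arrays labelled Mx1Cre were spread more widely (SD 0.39, n = 3), with a gap of 1.08 log2 units between the groups. The difference was -1.54 ± 0.17 log2 units (SE), 2.91-fold lower. By size of fall, Gzmc ranked 7 and Ctsw 16 among all genes.

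Nkg7 encodes a membrane protein of cytotoxic granules that takes part in their release. It read 10.2, 10.8 and 10.6 in the arrays labelled Mx1Cre and 10.8, 11.0 and 10.9 in those labelled flox/flox. The groups were apart by 0.059 log2 units, less than the SD of either, and the mean level lay at percentile 95.6 and 97.0 of genes. The difference was -0.42 ± 0.14 log2 units (SE), 1.34-fold lower, and did not pass.

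Gzma encodes granzyme A, which cuts after basic residues. It read 5.45, 5.72 and 5.68 in the arrays labelled Mx1Cre and 5.99, 5.94 and 6.22 in those labelled flox/flox. The groups did not overlap, at levels near the lower quartile of genes. The difference of -0.43 ± 0.11 log2 units (SE) was 1.35-fold lower and fell just outside the threshold. It passed under 4 of 14 alternatives.

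Prf1 encodes perforin, the pore-forming protein that granzymes need to enter a target. It read 6.72, 6.78 and 6.72 in the arrays labelled Mx1Cre and 6.80, 6.86 and 6.83 in those labelled flox/flox. The groups were separated by 0.024 log2 units, and the difference of -0.09 had a 95% interval of -0.27 to 0.09. Gzmk, granzyme K, which shares granzyme A's preference, ranged from 5.48 to 5.81 in the arrays labelled Mx1Cre and from 5.66 to 5.70 in those labelled flox/flox. Its difference was -0.04 log2 units (95% interval -0.27 to 0.18). Gzmm, granzyme M, which cuts after methionine or leucine, ranged from 5.95 to 6.40 in the arrays labelled Mx1Cre and from 6.21 to 6.39 in those labelled flox/flox. Its difference was -0.10 log2 units (95% interval -0.37 to 0.17). The mean levels of these 3 genes lay between the lower quartile and just above the median of genes, and no detection call was used here, so a level cannot be told from background at this brightness.

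Replicate 1 was the lowest of the 3 arrays labelled Mx1Cre for 4 of the 8 genes, Gzma, Gzmb, Ctsw and Nkg7. Over all genes that array was the lowest for 37.3%. The differences of Gzmb, Gzmc and Ctsw stayed between -4.77 and -1.33 log2 units when 1 array at a time was left out. Without replicate 1 of the arrays labelled Mx1Cre, Gzmb still differed by -4.00.

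Gzmb and Gzmc lie at 1 end of the granule protease locus on chromosome 14 (gene order from RefSeq, assembly GRCm38.p6), where other genes of the locus were higher in the arrays labelled Mx1Cre. In that order the locus holds Cma1, Cma2, Mcpt1, Mcpt2, Mcpt9, Mcpt4, Mcpt8, Ctsg, Gzme, Gzmd, Gzmg, Gzmn, Gzmf, Gzmc and Gzmb. Ctsg encodes cathepsin G, a primary granule protease of neutrophil precursors. It read 11.5, 11.7 and 11.6 in the arrays labelled Mx1Cre and 7.58, 8.67 and 7.91 in those labelled flox/flox. This was 3.54 ± 0.22 log2 units higher (SE, limma adjusted p = 2.02e-05). Mcpt8, a protease of basophils, read 9.79, 10.1 and 9.76 in the arrays labelled Mx1Cre and 6.88, 7.40 and 7.02 in those labelled flox/flox, or 2.77 ± 0.14 higher (SE, limma adjusted p = 5.04e-06). Neither gene's groups overlapped, and both rose under all alternatives tried.

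The 5 granzyme genes between Ctsg and Gzmc did not pass (limma, 0 at an unadjusted p under 0.05, and 0 calls under every alternative that tested them). Gzme, Gzmd, Gzmg, Gzmn and Gzmf, whose products are granzymes known mainly from mouse lymphocytes, differed by -0.14, 0.18, -0.01, 0.15 and -0.10 log2 units, at levels of 5.47 or less on every array, below the lower quartile of genes. Granzymes of this cluster are similar in sequence, and cross-reaction between their probe sets was not tested. The mast cell chymase genes Cma1, Mcpt1, Mcpt2 and Mcpt4 were dim as well and differed by 0.04, 0.06, -0.07 and 0.03 log2 units (limma adjusted p 0.834 to 0.958). Cma2 and Mcpt9 were not analysed here. Of the 6 neighbours measured outside the granzymes, 2 rose and 0 fell.

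**Figure D2:**
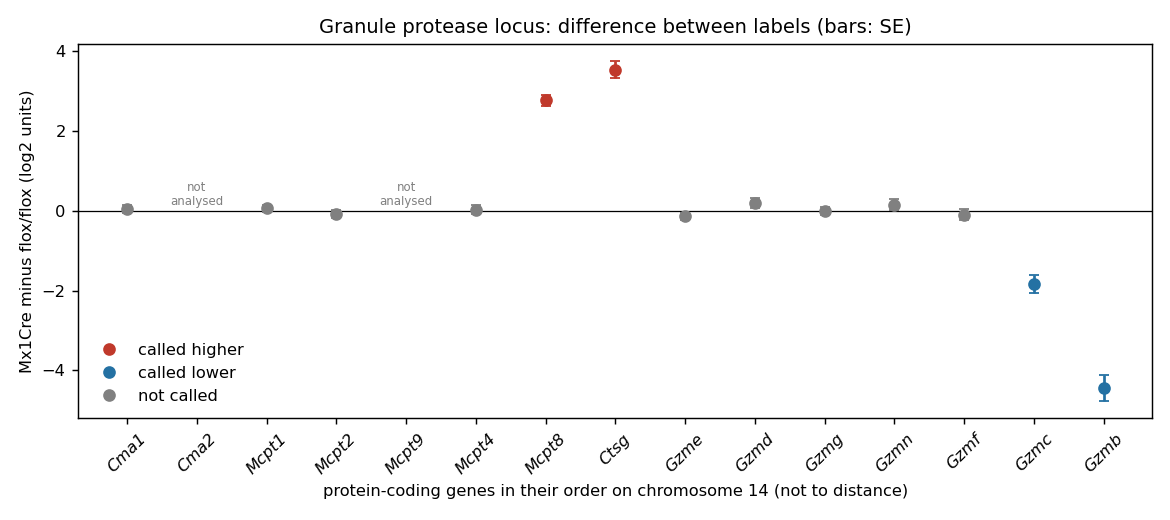
Difference between the labels (vertical axis, Mx1Cre minus flox/flox in log2 units, bars show the SE) for the genes of the granule protease locus in their order along chromosome 14, not to distance. Mcpt8 and Ctsg stand at 2.77 and 3.54, Gzmc and Gzmb at -1.83 and -4.45, and the 5 granzyme genes between them lie within 0.18 of 0.

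The 250 bases before the RefSeq start of Gzmb, Gzmc, Gzmd, Mcpt8 and Ctsg are printed because these neighbours moved in opposite directions or, for Gzmd, did not pass. The build is GRCm38.p6 and all 5 genes lie on the minus strand, at chr14:56262335-56262584 (Gzmb), chr14:56234658-56234907 (Gzmc), chr14:56132594-56132843 (Gzmd), chr14:56085198-56085447 (Mcpt8) and chr14:56102575-56102824 (Ctsg). Each is written 5′ to 3′, and capitals mark every match, on either strand, to one of 8 short motifs.
Gzmb: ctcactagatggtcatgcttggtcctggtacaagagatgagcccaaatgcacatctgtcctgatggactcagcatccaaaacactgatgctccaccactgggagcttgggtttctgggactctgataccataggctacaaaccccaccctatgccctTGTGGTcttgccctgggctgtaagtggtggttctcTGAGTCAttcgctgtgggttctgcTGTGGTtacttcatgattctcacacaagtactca
Gzmc: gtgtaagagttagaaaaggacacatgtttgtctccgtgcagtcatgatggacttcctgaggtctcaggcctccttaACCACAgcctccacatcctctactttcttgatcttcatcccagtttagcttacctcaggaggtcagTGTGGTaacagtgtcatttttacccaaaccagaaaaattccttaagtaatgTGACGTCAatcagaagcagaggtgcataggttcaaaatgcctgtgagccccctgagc
Gzmd: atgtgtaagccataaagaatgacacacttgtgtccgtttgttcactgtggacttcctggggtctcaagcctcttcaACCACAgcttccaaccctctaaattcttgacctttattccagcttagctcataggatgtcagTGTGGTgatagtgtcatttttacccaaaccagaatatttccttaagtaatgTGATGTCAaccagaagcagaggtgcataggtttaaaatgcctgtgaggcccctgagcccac
Mcpt8: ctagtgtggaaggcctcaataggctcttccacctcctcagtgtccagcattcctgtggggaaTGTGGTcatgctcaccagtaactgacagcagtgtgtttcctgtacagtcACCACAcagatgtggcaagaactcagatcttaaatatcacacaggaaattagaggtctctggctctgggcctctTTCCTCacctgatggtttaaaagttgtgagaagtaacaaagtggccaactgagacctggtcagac
Ctsg: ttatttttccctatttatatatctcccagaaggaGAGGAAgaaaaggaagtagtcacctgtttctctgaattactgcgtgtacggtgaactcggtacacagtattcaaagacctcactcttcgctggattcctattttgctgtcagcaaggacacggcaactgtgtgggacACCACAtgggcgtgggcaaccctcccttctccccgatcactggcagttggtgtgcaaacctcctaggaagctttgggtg

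The motifs searched were TGTGGT (RUNX factors), TTGCNNAA (C/EBP), TGANTCA (AP-1), TGACNTCA (CREB/ATF), TGGGAA (Ikaros), GAGGAA (PU.1), AGATAA (erythroid and mast cell factors of the GATA family) and AGGTGT (T-box factors). Over 32536 RefSeq promoter windows of the same length, they occurred on either strand in 14%, 9.57%, 6.73%, 7.43%, 21.6%, 23.4%, 9.97% and 11.9%, in that order. No match in the printed windows overlaps another. Gzmb has TGTGGT at 93 to 88 and at 34 to 29 bases before the start, and the AP-1 letters TGAGTCA at 58 to 52. The mouse Gzmb promoter is known for AP-1 and core-binding factor sites that work in T cells. Gzmc and Gzmd each have 2 RUNX matches and 1 CREB/ATF match at similar positions, as do Gzme, Gzmf and Gzmg, although of these only Gzmc passed. Mcpt8 and Ctsg hold RUNX and PU.1 letters, and the PU.1 letters are also in the windows of Gzmf, Gzmg, Gzmn and Gzmm, which did not pass. Gzmn holds neither the RUNX nor the CREB/ATF letters. Of the 7 cytotoxic granule genes with a promoter entry, 6 held the RUNX letters, 4 the T-box letters and 0 the C/EBP letters. Ctsw had no entry. A match is a description of these letters, and neither a match nor its absence shows whether a factor binds.

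Gzmm lies near the elastase locus of chromosome 10 in the same assembly, where the neutrophil proteases were higher in the arrays labelled Mx1Cre and Gzmm was not. Elane, neutrophil elastase, averaged 8.01 ± 0.68 in the arrays labelled Mx1Cre and 5.93 ± 0.19 in those labelled flox/flox (SD, n = 3 each), a difference of 2.08 ± 0.27 log2 units (SE, limma adjusted p = 0.00181). Prtn3, proteinase 3, was higher by 2.04 ± 0.22 and Prss57, another neutrophil granule protease, by 0.89 ± 0.12 (SE, limma adjusted p 0.000614 and 0.00264). Of the 3 neighbours measured 3 rose, and Cfd was not analysed here. Gzma and Gzmk are adjacent on chromosome 13, and their differences were given above.

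Genes that load, mature and release granules did not move as one with Gzmb. Of 19 measured, 3 rose, 1 fell and 15 did not pass, with a median difference of -0.10. Over all genes 2.63% rose and 2.28% fell. In 10 of the 19 the groups did not overlap, 6 of them lower. Over all genes the groups did not overlap in 21.6%, with 11% lower. Srgn, serglycin, the proteoglycan that holds granzymes in the granule, read 12.2, 12.2 and 12.2 in the arrays labelled Mx1Cre and 12.4, 12.4 and 12.4 in those labelled flox/flox. Its groups did not overlap, but its difference of -0.24 did not pass (limma adjusted p = 0.144). Ctsc, cathepsin C, which removes the propeptide of granzymes and of the neutrophil serine proteases, differed by -0.10 and Unc13d, needed for granule fusion, by -0.00131 (limma adjusted p 0.689 and 0.998). Ctsh, cathepsin H, which can also process granzyme B in mice, rose 2.50-fold (limma adjusted p = 0.000971).

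Rab27a, the small GTPase that docks granules, and Lyst, a regulator of lysosome size, each rose 1.43-fold (limma adjusted p 0.0213 and 0.0109), and Lamp2, a lysosomal membrane protein, differed by -0.39 (limma adjusted p = 0.0330). These 3 calls depended on single arrays. Rab27a lost its call without replicate 2 or 3 of either label (limma adjusted p up to 0.0837), Lyst without replicate 3 labelled Mx1Cre (0.0543), and Lamp2 without any array other than replicate 2 labelled Mx1Cre (up to 0.124).

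Of 5 measured serpins that inhibit granzymes or related proteases, 1 fell and 4 did not pass. All 5 differences were below 0, as were those of 10643 of the 19937 genes. In 3 of the 5 the groups did not overlap, all lower, against 11% of all genes. Outside the naming rule, Serpinb6b differed by -0.75 log2 units and did not pass (limma adjusted p = 0.0673). Serpinb9, which in the mouse inhibits granzyme B and protects the cells that make it, read 5.43, 5.69 and 5.61 in the arrays labelled Mx1Cre and 6.20, 6.12 and 6.34 in those labelled flox/flox. The groups did not overlap, and it fell 1.56-fold (limma adjusted p = 0.00532). Among 14 granzyme substrates 2 rose, Lmnb1 (lamin B1, 1.48-fold) and Parp1 (a DNA repair enzyme, 1.32-fold), with limma adjusted p 0.00768 and 0.0301. Parp1 lost its call without any array other than replicate 1 labelled Mx1Cre (limma adjusted p up to 0.120).

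Of 10 death ligand and effector cytokine genes 3 fell and 1 rose. Ccl5, a chemokine that cytotoxic cells store and secrete, read 7.99, 8.89 and 8.84 in the arrays labelled Mx1Cre and 10.2, 10.2 and 9.91 in those labelled flox/flox. It fell 2.89-fold (limma adjusted p = 0.00266), and as for Gzmb, replicate 1 labelled Mx1Cre was the lowest array. Tnfsf10, the death ligand TRAIL, differed by -0.84 and Ltb, lymphotoxin β, by -0.70 log2 units (limma adjusted p 0.00633 and 0.00429), while Ccl3, a chemokine of myeloid and cytotoxic cells, was 1.62-fold higher (0.00562). Fasl and Ifng, the Fas ligand and interferon γ, differed by 0.07 and -0.05 and did not pass (limma adjusted p 0.788 and 0.856).

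Among 13 regulators of cytotoxic genes 2 fell, 1 rose and 10 did not pass. Tox, a factor that innate lymphoid and developing T cells require, read 7.47, 7.35 and 7.77 in the arrays labelled Mx1Cre and 10.5, 10.3 and 10.4 in those labelled flox/flox, 7.32-fold lower (limma adjusted p = 1.66e-06). Id2, which opposes E proteins in innate lymphoid cells, differed by -1.02 and Nfil3, a factor of NK cell development, by 0.95 log2 units (limma adjusted p 0.0298 and 0.0370). Id2 lost its call without any one of the arrays labelled flox/flox (limma adjusted p up to 0.0969). Nfil3 lost it without replicate 3 labelled flox/flox or any one array labelled Mx1Cre (up to 0.106). Tbx21 and Eomes, the T-box factors that drive Gzmb and Prf1 in lymphocytes, and Runx3 differed by -0.08, 0.34 and -0.15 and did not pass (limma adjusted p 0.808, 0.249 and 0.462). Eomes passed under 2 of 14 alternatives, 1 of them without replicate 1 labelled Mx1Cre (limma adjusted p = 0.0294).

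Of 13 receptor and kinase genes through which cytokines induce granzymes 3 fell and 0 rose. Il7r, the interleukin-7 receptor, was 2.19-fold lower (limma adjusted p = 0.000544). Il18r1, an interleukin-18 receptor chain, differed by -0.85 and Jak1, a kinase of these receptors, by -0.46 log2 units (limma adjusted p 0.0216 and 0.0236). Il18r1 lost its call without replicate 2 or 3 of either label (limma adjusted p up to 0.0861). Jak1 lost its call without any array other than replicate 2 labelled flox/flox (up to 0.0881).

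**Figure D3:**
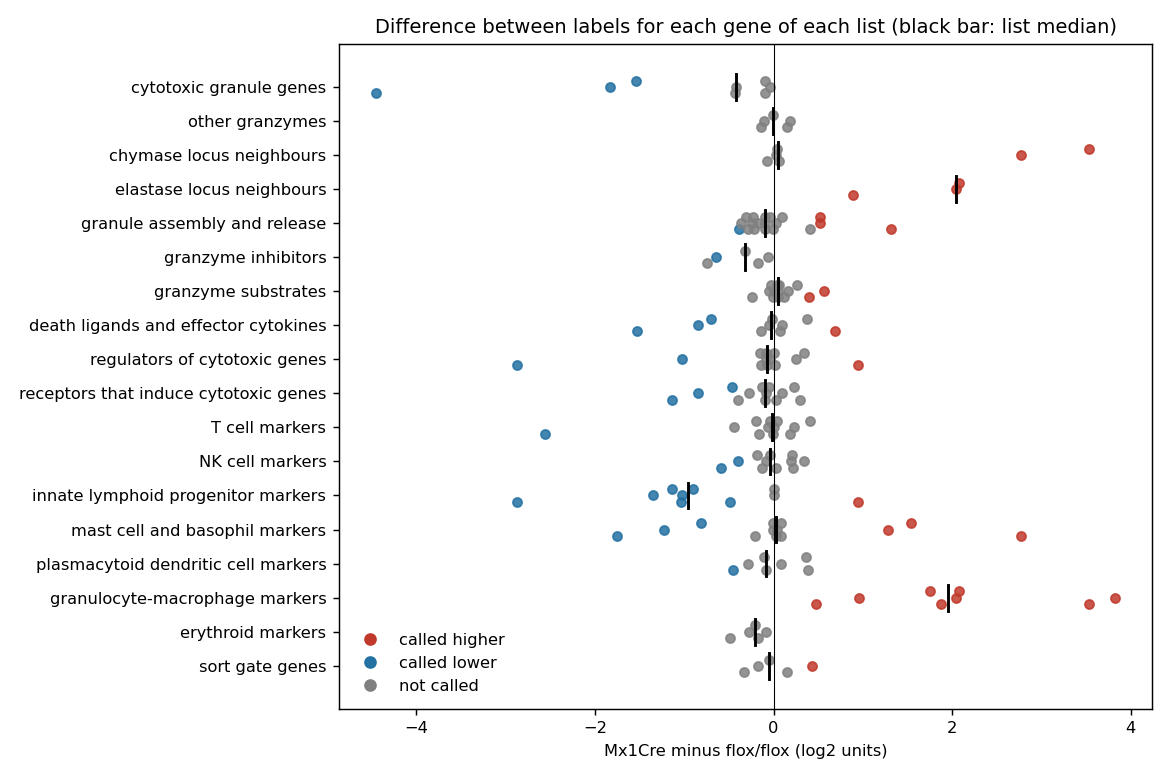
Difference between the labels (horizontal axis, Mx1Cre minus flox/flox in log2 units) for each gene of the cytotoxic granule set and of the other lists, 1 point a gene, with a black bar at the list's median. The 3 called cytotoxic granule genes lie between -4.45 and -1.54, and the innate lymphoid progenitor list is centred at -0.96 while the T cell and NK cell lists are centred near 0.

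Markers of cells that could carry these granules moved to different extents. Of 10 innate lymphoid progenitor markers 7 fell and 1 rose, with a median difference of -0.96. Tox, Id2, Nfil3 and Il7r stand in this list too and were given above. Its mean level was 6.67 to 6.88 in the arrays labelled Mx1Cre and 7.57 to 7.59 in those labelled flox/flox. Beside Tox and Il7r, Rora, a nuclear receptor of type 2 innate lymphoid cells, fell 2.56-fold (limma adjusted p = 0.000343). Outside the naming rule and chosen after their values were seen, Pdcd1, Zbtb16 and Gata3 differed by -1.03, -0.90 and -0.49 (limma adjusted p at most 0.00991), and Gata3 lost its call without replicate 3 labelled flox/flox (0.0503). Without that array 5 of the 10 markers passed. The share of these cells, and its part in the values of Gzmb, Gzmc and Ctsw, was not tested.

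Of 12 T cell markers 1 fell and 0 rose, and that was Trat1, a T cell receptor adaptor (-2.56 log2 units, limma adjusted p = 4.62e-05). Cd3e, a chain of the T cell receptor complex, read 6.58, 6.51 and 6.45 in the arrays labelled Mx1Cre and 6.55, 6.48 and 6.53 in those labelled flox/flox. Cd8a, the co-receptor of cytotoxic T cells, differed by 0.23 and did not pass (limma adjusted p = 0.522). The list's mean level was 6.03 to 6.05 in the arrays labelled Mx1Cre and 6.23 to 6.28 in those labelled flox/flox. That mean includes Trat1, by far the largest difference of the list, while the list's median difference was -0.02. Of 11 NK cell markers 2 fell and 0 rose, and the mean level was 5.74 to 6.06 in the arrays labelled Mx1Cre and 5.94 to 6.04 in those labelled flox/flox. The defining NK receptor genes Ncr1 and Klrb1c differed by -0.04 and -0.19 and did not pass (limma adjusted p 0.968 and 0.768). Replicate 1 was the lowest array labelled Mx1Cre for both, at 5.03 and 4.13, and for 7 of the 11 NK cell markers. That array was also the lowest of its label for 7 of the 8 granulocyte-macrophage markers and for 37.3% of all genes. The mean levels of Ncr1 and Klrb1c lay below the lower quartile of genes under both labels.

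The NK markers that passed, Cd244a and Itga2, are also expressed on myeloid progenitors or platelets, and differed by -0.59 and -0.40 log2 units (limma adjusted p 0.0214 and 0.0344). Cd244a lost its call without replicate 1 labelled flox/flox or replicate 2 or 3 labelled Mx1Cre (limma adjusted p up to 0.0715). Itga2 lost its call without any array other than replicate 1 labelled Mx1Cre (up to 0.111). An array value has no true 0, and no detection call was used here, so the T and NK cell marker values do not show whether such cells were present. The lineage-negative, Kit-positive gate is meant to leave out mature T and NK cells, and the part of any that remained in the values of Gzmb and Ctsw was not tested.

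Mast cells and basophils, which can also make granzyme B, had 3 of 13 markers higher and 3 lower. Mcpt8, Hdc (histidine decarboxylase) and Ms4a2 (the IgE receptor β chain) rose, Hdc by 1.54 and Ms4a2 by 1.28 log2 units. Fcer1a, the IgE receptor α chain, Cyp11a1, a steroid-synthesis enzyme, and Cpa3, a mast cell carboxypeptidase, fell by 1.75, 1.23 and 0.81 (limma adjusted p of these 5 genes at most 0.00805). The list's mean level ranged from 6.71 to 6.96 in the arrays labelled Mx1Cre and from 6.65 to 6.74 in those labelled flox/flox. Of 7 plasmacytoid dendritic cell markers 1 fell, the interferon factor gene Irf7 (-0.46 log2 units, limma adjusted p = 0.0148), and 0 rose. Irf7 lost its call without replicate 1 or 2 labelled flox/flox or replicate 3 labelled Mx1Cre (limma adjusted p up to 0.0638). The part of these cells was not tested.

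All 8 granulocyte-macrophage markers passed as higher in the arrays labelled Mx1Cre, as did 2.63% of all genes. Among them were Ly86 (14.2-fold), Ctsg and Elane. Ctsg, Elane and Prtn3 stand in the locus lists too and were given above. The list's mean level was 7.25 to 7.42 in the arrays labelled flox/flox and 9.17 to 9.66 in those labelled Mx1Cre. Cebpa was higher in the same arrays, and these directions too hold only for the labels as deposited. None of 5 erythroid markers passed (limma, 1 at an unadjusted p under 0.05, 0 calls in each of the other settings). Of 5 sort gate genes 1 rose, Fcgr2b (0.43 log2 units, limma adjusted p = 0.0410), which lost its call without any array other than replicate 1 labelled Mx1Cre (up to 0.147). Kit, the receptor used for the sort, read 10.7, 10.5 and 10.6 in the arrays labelled Mx1Cre and 10.5, 10.4 and 10.5 in those labelled flox/flox, and did not pass (limma adjusted p = 0.513).

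**Figure D4:**
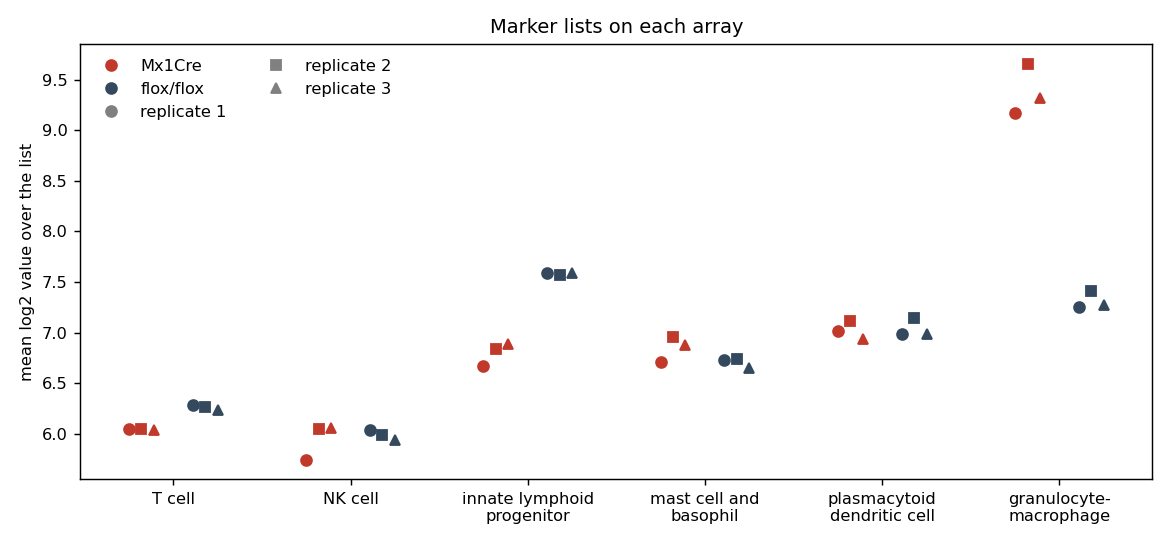
Mean log2 value over each marker list (vertical axis) on the 3 arrays labelled Mx1Cre (red, left in each pair) and the 3 labelled flox/flox (dark blue, right), with symbols for the replicate number. Innate lymphoid progenitor markers lie at 6.67 to 6.88 against 7.57 to 7.59, and NK cell markers overlap between the labels. The T cell mean includes Trat1, and the median difference of that list was -0.02.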

How the data were processed

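Each of the 6 arrays is 1 sample, from 3 mice of each genotype per the design text. Per the labels' protocols, RNA (20 ng) went through amplification before labelling. The deposited values are log2 expression per probe set, made with RMA and affy per the submitters' processing notes. Of their versions and the chip definition, the sources used here say nothing. RMA normalizes across arrays and compresses dim probe sets. The number of arrays limits the precision.

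GEO's platform annotation can be old. It names 1 gene for 21640 of the 34760 probe sets, several for 1321 and none here for 11799. By Entrez number 21553 matched the RefSeq gene table (GRCm38.p6), with 0 symbols changed. The probe set of highest mean over all arrays stood for a gene, giving 19937 genes. The test was limma's lmFit and eBayes (limma 3.58.1, R 4.3.3), adjusted by Benjamini-Hochberg over all genes. Promoter windows are RefSeq's.

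The members and the 17 gene lists were chosen with earlier results of these data known, and 145 of 161 listed genes were measured. Lists were described by counts and medians, with no test of the list. The named genes are all members, Cebpa, every measured gene of the granzyme, chymase and elastase locus lists, up to 3 higher and 3 lower called genes of each other list, 15 genes named whatever their p, and the 5 genes nearest in profile to Gzmb and to Prf1. The 15 alternatives were array weights, cyclic loess, centring each array on its median, a block for the replicate number, each array left out in turn, 2 filters on dim genes, 2 treatments of probe sets, an intensity trend with a robust prior.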

Additional observations from a re-analysis of the deposited data

How the results depend on the processing

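Gzmb and Ctsw kept their direction and their call under all 15 alternatives and Gzmc under the 14 that tested it, with differences of -4.77 to -4.00, -1.72 to -1.33 and -2.01 to -1.57 log2 units. Gzma passed with the replicate block, the lower filter, the trend and array weights and in 0 of the other 10. Gzmk and Gzmm each changed sign in 1 of 14 alternatives and passed in 0. Nkg7 and Prf1 passed in 0 of 15 and stayed below 0. With 1 array left out, the count of all genes called ran from 538 to 785 (979 with all 6), where fewer arrays also lower the power, and that of listed genes from 30 to 40 (41 with all 6). Counts of all genes called under the other alternatives ran from 861 to 1389.

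Nothing in the labels says whether same-numbered arrays of the 2 labels share more than a number. The deviations of same-numbered arrays from the group means correlated at 0.188, 0.0515 and 0.174. Replicate 2 labelled Mx1Cre correlated better with replicate 3 labelled flox/flox (0.124), and every other array correlated best with its own number. Whether the numbers mark a shared batch was not tested. With the replicate block 1089 of all genes, 4 of the cytotoxic granule genes and 42 of the listed genes passed.

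By list, the number of genes called moved by over 1.5 times as follows. The granule assembly count of 4 was 1 to 3 without 1 array and 8 with the trend. The inhibitor count of 1 ran from 0 to 2, the T cell count of 1 from 0 to 2 and the NK cell count of 2 from 0 to 3. The substrate count of 2 was 1 without some arrays, the regulator and receptor counts of 3 were 1, and the innate lymphoid count of 8 was 5 without replicate 3 labelled flox/flox. The plasmacytoid and sort gate counts of 1 reached 0. The filters remove genes, Trat1 and Serpinb9 among them, and no detection call was used, so dim genes limit what these arrays show.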

Other observations

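The genes whose values over the 6 arrays, centred on their own mean, were nearest to those of Gzmb were Trgv1, Scin, Tox, Zfp711 and Trat1, at root mean square differences of 0.556 to 1.14 log2 units. Trgv1, one of the V segments from which γ chains of the T cell receptor are built, read 5.44, 6.51 and 6.20 in the arrays labelled Mx1Cre and 9.59, 9.45 and 9.40 in those labelled flox/flox. Like Gzmb, it was lowest in replicate 1 labelled Mx1Cre and next in replicate 3. Scin, which encodes an actin-severing protein, read 7.34, 8.30 and 7.72 in the arrays labelled Mx1Cre and 10.9, 10.6 and 10.7 in those labelled flox/flox, in the same order among the arrays labelled Mx1Cre. Tox, Zfp711 and Trat1 differed from that order. The granulocyte-macrophage markers were higher, not lower, in the arrays labelled Mx1Cre. Among them Elane, Prtn3, Ctsg, Csf1r, Csf3r, Irf8 and Ly86 had the same order there, and Mpo did not. The order was thus not particular to genes that fell with Gzmb. Nearness over 6 arrays in 2 separate groups mostly reflects the size of the difference, and no p is given.

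The genes nearest to Prf1 were Zer1, Cbx1, A4galt, Map3k15 and Dcaf13, at 0.0160 to 0.0214 log2 units. Their differences were -0.11 to -0.07 and did not pass (limma adjusted p 0.584 to 0.783). Genes chosen for nearness to Prf1 had to be about as flat as it, so nothing is read from this.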
